A study of Drosophila melanogaster with 2 samples.

Results

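Each member is a stretch of the X chromosome of Drosophila melanogaster where ChIP-seq (chromatin immunoprecipitation followed by sequencing) of tagged Mio gave a peak in the authors' relaxed pooled list, but not in their optimal list. The members were the peaks of the pooled relaxed list on X that shared no base with an optimal peak. There were 5297 of them among 28423 pooled relaxed peaks. The same rule gave 4966 peaks on 2L, 5891 on 3L and 5930 on 3R, which serve as the comparison. The study had 1 group, with 2 biological replicates called 5 and 1 by the labels, of whole larvae in the wandering stage of the third instar, males and females pooled, from a transgenic line that expresses Mio with a C-terminal GFP. An anti-GFP antibody pulled down the tagged protein from chromatin sheared by sonication. The sources used here do not give the share of each sex in either replicate or the promoter that drives the transgene. No untagged or second group was analysed here, and whole animals mix all larval tissues.

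Mio is an older name for Mondo, the fly relative of the vertebrate factors ChREBP and MondoA. It pairs with Mlx (bigmax) through a helix-loop-helix and leucine zipper and takes part in the transcriptional response to dietary sugar, and the family binds paired E-boxes related to the palindrome CACGTG. The X chromosome is present as a pair in females and as a single copy in males, where the MSL complex with the roX RNAs raises its transcription. A relaxed list feeds the irreproducible discovery rate (IDR) procedure, which compares the ranks of peaks between replicates. Such lists hold background regions on purpose, so membership is not a statement that Mio binds there.

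The 6 sequences below are the summit with 50 bases on either side for the strongest members by pooled signal that had no annotated UTR base in that window and a summit in both replicate lists. They show what lies under the peaks that came closest to the optimal list. All are read from the RefSeq Release 6 genome (dm6), plus strand, 5′ to 3′, and capitals mark any E-box of the general form CANNTG.
dy intron, chrX:11776340-11776440: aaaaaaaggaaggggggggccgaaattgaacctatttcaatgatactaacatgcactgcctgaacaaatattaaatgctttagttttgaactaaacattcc
DIP-alpha intron, chrX:3546270-3546370: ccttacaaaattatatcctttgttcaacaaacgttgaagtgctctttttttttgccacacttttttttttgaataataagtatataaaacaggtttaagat
CG42258 intron, chrX:12472333-12472433: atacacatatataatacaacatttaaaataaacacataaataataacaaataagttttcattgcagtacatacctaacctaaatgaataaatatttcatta
Raf intron, chrX:2306524-2306624: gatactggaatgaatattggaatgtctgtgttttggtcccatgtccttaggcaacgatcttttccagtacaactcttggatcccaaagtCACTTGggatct
Intergenic near Atf3, chrX:1277166-1277266: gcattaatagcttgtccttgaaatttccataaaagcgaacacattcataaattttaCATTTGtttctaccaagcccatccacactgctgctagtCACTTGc
X11L promoter, chrX:17599483-17599583: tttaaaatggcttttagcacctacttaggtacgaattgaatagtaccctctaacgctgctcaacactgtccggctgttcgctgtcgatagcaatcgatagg

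A CANNTG word stood in the windows of Raf and Atf3 and in none of the other 4, and CACGTG stood in none of the 6. The dy gene encodes a membrane protein of the apical matrix, DIP-alpha a neuronal surface protein of the immunoglobulin family, Raf the kinase below Ras, Atf3 a bZIP transcription factor and X11L an adaptor protein.

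The next 3 are the strongest such members that held CACGTG, the core of the Mondo-Mlx element, which is in capitals.
GIIIspla2 and Traf6 promoter, chrX:8157394-8157494: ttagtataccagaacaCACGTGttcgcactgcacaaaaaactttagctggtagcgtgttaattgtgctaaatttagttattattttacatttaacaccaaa
RpL17 promoter, chrX:6743498-6743598: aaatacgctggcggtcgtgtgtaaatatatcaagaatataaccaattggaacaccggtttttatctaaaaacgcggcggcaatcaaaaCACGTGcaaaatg
Ilp6 promoter, chrX:2334694-2334794: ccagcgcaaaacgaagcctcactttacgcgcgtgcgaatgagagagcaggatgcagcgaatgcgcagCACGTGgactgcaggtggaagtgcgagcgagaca

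Traf6 encodes a TNF-receptor-associated factor, RpL17 a protein of the large cytosolic ribosomal subunit, and Ilp6 an insulin-like peptide that the fat body makes in larvae that have stopped feeding. The last pair, chosen after the data had been seen, shows the strongest such members with a GAGAGAGA word, the kind of run that GAGA factor binds, and with a CACACACA word. Capitals mark the word on either strand.
brk promoter, chrX:7307677-7307777: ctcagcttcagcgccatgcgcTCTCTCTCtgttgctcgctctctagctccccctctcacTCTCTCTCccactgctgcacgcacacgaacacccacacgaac
sgg intron, chrX:2652716-2652816: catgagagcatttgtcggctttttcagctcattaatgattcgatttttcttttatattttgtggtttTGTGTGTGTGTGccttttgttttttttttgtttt

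The brk gene encodes a repressor of Dpp target genes, and sgg encodes the fly GSK-3 kinase, which also phosphorylates glycogen synthase.

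The members were weak and nearly uniform in width, and the optimal list amounted to a cut on pooled signal. All but 1 of the 5297 members (5296) were 360 bp wide. The deposited signal value, on a scale that the sources used here do not state, ran from 14.1 to 73.6 on X with a median of 19.8 and quartiles of 16.4 and 26.9. The medians were 20.4 on 2L, 20.7 on 3L and 20.8 on 3R. In the pooled list, 1145 peaks had a signal at or above that of the weakest optimal peak, and all 1145 overlapped an optimal peak. No member reached it. The strongest member had a signal of 73.6 and the weakest optimal peak on X one of 73.8, with no gap in signal between them that sets the members apart. Of the members, 4262 lay below a signal of 30. Of all pooled peaks on X, 4.01% overlapped an optimal peak, against 5.25% on 2L, 4.15% on 3L and 5.20% on 3R, and 4.65% over the 4 arms.

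Most members carried high q-values. The deposited −log10 q had a median of 0.228 on X, a q of 0.591, against a q of 0.537 over 2L, 3L and 3R. A q of at most 0.05 was held by 674 members, 12.7% of those on X, against 15.2% over 2L, 3L and 3R. Signal, q and the optimal list come from the same pooled calling, so these values describe the members and test nothing.

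The replicates differed in how many peaks each placed on X. Replicate 5 had 6712 of its 29999 relaxed peaks on X, which is 22.4% (95% Wilson interval 21.9 to 22.8). Replicate 1 had 3749 of 30000, which is 12.5% (12.1 to 12.9). Outside the optimal list this came to 275 peaks per Mb of X in replicate 5, against 212, 215 and 184 per Mb of 2L, 3L and 3R in the same replicate. In replicate 1 it came to 150 per Mb of X, against 244, 233 and 227 per Mb of 2L, 3L and 3R. X was thus the densest of the 4 arms in replicate 5 and the sparsest in replicate 1. The pooled members lay between, at 225 per Mb of X, against 211, 210 and 185 per Mb of the other arms. All these densities divide by the whole arm, sparse ends included, and density outside those ends was not compared between arms. The authors' dm3 lists showed the same gap, with 21.4% of peaks on X in replicate 5 and 12.6% in replicate 1. Chromosome 4, outside the comparison arms, went the same way with 601 peaks in replicate 5 and 264 in replicate 1. Both lists end at close to 30000 peaks, so a larger share on X leaves fewer places for the other arms. With 2 replicates of 1 group the gap has no spread to be set against, and what it comes from was not tested.

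The gap opened down the list and was not visible among the strongest peaks. Among the 1000 strongest peaks of a list, X held 15.6% in replicate 5 (13.5 to 18.0) and 17.0% in replicate 1 (14.8 to 19.5), and these intervals overlap. Among the 5000 strongest it held 16.8% in replicate 5 and 13.3% in replicate 1. At 10000 peaks the shares were 18.5% and 11.9% for replicates 5 and 1, and at 20000 they were 20.8% and 12.0%. The members sit in that deeper range, since those matched in replicate 5 had a median rank of 12171 there.

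**Figure D1:**
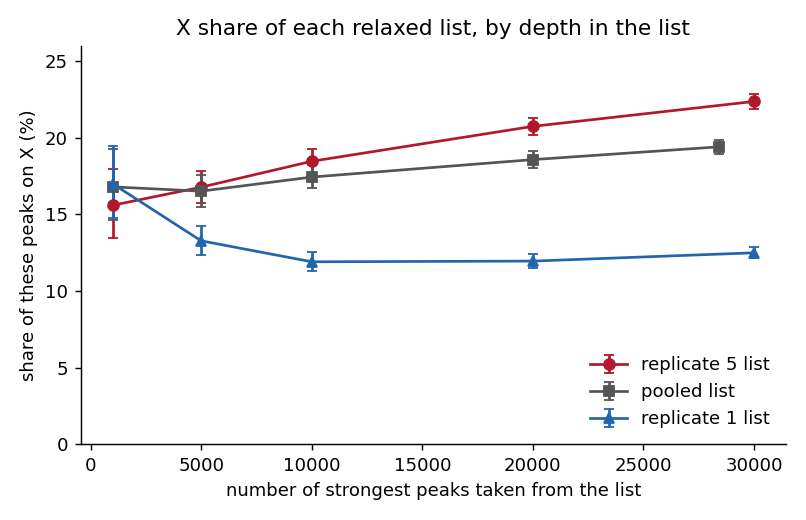
The share of peaks on X (percent, vertical axis) among the strongest peaks of each relaxed list (horizontal axis, number of peaks taken), with 95% Wilson intervals over peaks. The lists start together at 1000 peaks, with 15.6% in replicate 5 and 17.0% in replicate 1, and part to 22.4% and 12.5% at their ends.

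The gap ran along the whole of X. In each of the 23 full 1-Mb bins of X, replicate 5 had more relaxed peaks than replicate 1, with ratios from 1.18 to 2.40 and a median of 1.72. The median ratio was 0.841 on 2L, 0.968 on 3L and 0.855 on 3R. The lowest bin of X, at 20 to 21 Mb, held 110 peaks in replicate 5 and 93 in replicate 1. The highest, at 16 to 17 Mb, held 400 and 167. Ratios on 2L, 3L and 3R reached 1.21, 1.22 and 1.08 at most, so only 1 bin of X, the lowest, fell inside the range of the other arms.

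**Figure D2:**
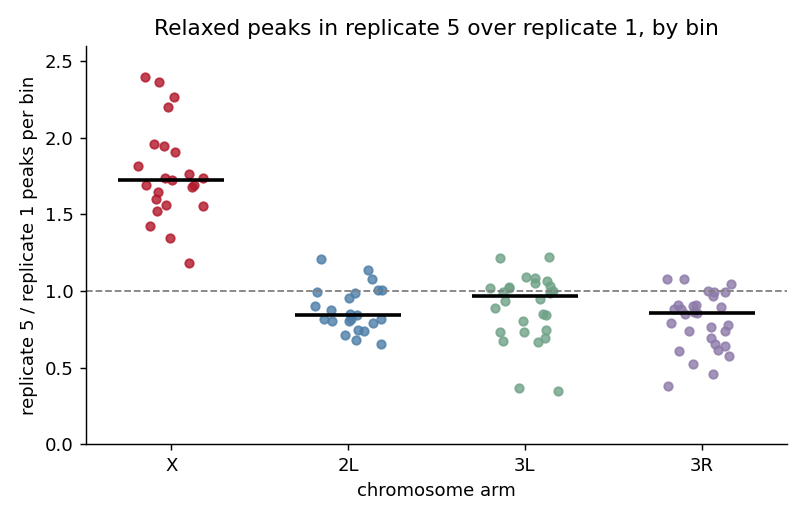
The number of relaxed peaks in replicate 5 divided by that in replicate 1 (vertical axis) in full 1-Mb bins of each arm (horizontal axis), with each point 1 bin and each bar the median over bins; 2 bins of 3R without replicate 1 peaks have no point. All points of X lie above 1, with a median of 1.72, while the medians of 2L, 3L and 3R lie below 1.

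The members were spread along X with 1 sparse end, and the other arms had a sparse end too. Over full bins they numbered from 48 to 346 per Mb, with a median of 250. The densest bin, 13 to 14 Mb, had 346 members and 10 optimal peaks. The first 20 Mb held 5026 members, or 251 per Mb, and the remaining 3.54 Mb towards the centromere held 271, or 76.5 per Mb. That proximal end held 10 of the 187 optimal peaks of X. The sparsest full bins of the other arms held 65 members on 2L (22 to 23 Mb) and 4 on 3L (26 to 27 Mb). On 3R, the bins from 0 to 2 Mb held none. Bins of X with more start sites tended to hold more members, with a Spearman rank correlation of 0.54 over 23 bins and 0.33 over the 20 bins of the first 20 Mb. Bins of 1 arm share libraries and neighbouring sequence, so these are descriptions. The median gap between neighbouring summits was 1768 bp on X, and 16.4% of members shared bases with another member, so peaks are not all separate sites. The median distance to an optimal peak was 36.7 kb on X, against 29.7 kb on 2L, 32.9 kb on 3L and 27.4 kb on 3R, and 2.51% of members lay within 1 kb of one.

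Few members had a summit in both replicate lists. A match meant a replicate summit within 100 bp, and 966 members were matched in both lists. That is 18.2% (95% Wilson interval 17.2 to 19.3), against 20.3% over 2L, 3L and 3R and 19.8% over all 4 arms. The difference of −2.08 percentage points (95% Newcombe interval −3.27 to −0.86) covers counting error over peaks only, and peaks are not replicates. Among the optimal peaks of X, 172 of 187 were matched in both lists. Another 1042 members of X, 19.7%, were matched in neither list, against 20.2% over the other arms, a difference of −0.56 points whose interval (−1.77 to 0.69) includes 0.

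The members matched in 1 list divided unequally. Replicate 5 alone matched 2459 members, 46.4% of those on X, against 35.9% over 2L, 3L and 3R. Replicate 1 alone matched 830, or 15.7% of those on X, against 23.5% over the other arms. Counting all matches, replicate 5 held a summit at 64.7% of X members, 8.41 points more than over the other arms (6.92 to 9.89), and replicate 1 at 33.9%, 9.94 points fewer (difference −9.94, −11.4 to −8.45). The 2 differences held in sign against each of the 3 arms alone. With only the 150 strongest peaks per Mb of each arm and list allowed to match, a limit chosen after the data had been seen, the difference was −0.67 points in replicate 5 (−2.20 to 0.87) and −0.89 points in replicate 1 (−2.33 to 0.57), and that for both lists was −0.32 points (−1.35 to 0.75). This limit gives each list the same density over the whole length of every arm, sparse ends included. Density outside those ends was not made equal. Under it, replicate 5 matched 45.5% of X members, against 44.9% on 2L, 45.0% on 3L and 48.4% on 3R, and replicate 1 matched 32.7%, against 32.2%, 33.2% and 35.1%. In replicate 5, X was thus lower than 3R alone.

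**Figure D3:**
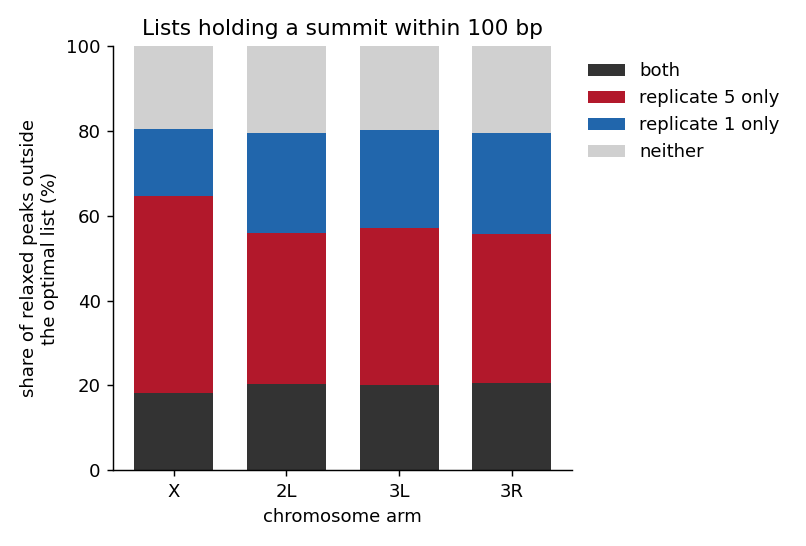
The share of relaxed peaks outside the optimal list (percent, stacked) whose summit was matched within 100 bp in both replicate lists, in 1 of them or in neither, for X and the other arms. The band for replicate 5 only takes 46.4% of X members and the band for replicate 1 only 15.7%, while the bands for both and neither are of like height on all 4 arms.

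The ranks given by the replicates to the members they shared were loosely related. Over the 966 X members matched in both lists, the Spearman correlation between the ranks was 0.33, and it was 0.35 on 2L, 0.33 on 3L and 0.31 on 3R. The median rank of these members was 9834.5 in replicate 5 and 9953 in replicate 1. Pooled and replicate lists share reads, so matching and pooled signal are not independent.

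Signal, replicate match and promoter position went together. The members of X were divided into quintiles by pooled signal, each with 1059 or 1060 peaks, and the same limits were applied to the other arms. From the weakest to the strongest quintile of X, the share matched in both lists was 1.32%, 2.36%, 7.74%, 24.6% and 55.1%. On 2L, 3L and 3R together the weakest quintile had 1.06% and the strongest 56.2%. The share matched in neither was 43.5% in the weakest quintile of X and 2.26% in the strongest. Replicate 5 matched 39.4% of the weakest and 89.9% of the strongest quintile of X, against 29.9% and 85.3% on the other arms. Replicate 1 matched 18.4% of the weakest and 62.9% of the strongest quintile of X, against 27.0% and 68.3% on the other arms. The unequal replicates were thus seen in the weakest and in the strongest quintile.

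Promoter members were about as frequent on X as on 3R and more frequent than on 2L and 3L. A promoter summit lay within 500 bp of a transcription start site (TSS) annotated for a protein-coding gene. On X, 1427 members qualified, which is 26.9% (25.8 to 28.2), against 25.1% over 2L, 3L and 3R and 25.5% over the 4 arms. The difference was 1.85 points (0.50 to 3.23), but against 3R alone it was 0.18 points (−1.46 to 1.82). With start sites of any gene it was 0.34 points (−1.04 to 1.74), and in the list of replicate 5 alone it turned to −0.38 points (−1.64 to 0.90). In the list of replicate 1 alone it was 3.32 points (1.87 to 4.83). The bases within 500 bp of such a TSS made up 11.0% of X, so promoter summits were 2.45 times as frequent as those bases on X, against 2.07 on 2L, 2.20 on 3L and 2.36 on 3R. Of the optimal peaks of X, 46.0% were promoter summits. Of the 1427 promoter members, 860 lay upstream of the nearest TSS, or 60.3%, against 60.1% on 2L, 60.1% on 3L and 64.1% on 3R. The median distance to a TSS was 1841 bp on X, against 2092 bp on 2L, 2272 bp on 3L and 1929 bp on 3R.

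The promoter share grew with signal. It was 15.4%, 18.2%, 23.3%, 31.4% and 46.3% from the weakest to the strongest quintile of X, and 14.1% in the weakest and 43.3% in the strongest quintile of the other arms. The strongest quintile of X members thus stood beside the 46.0% of the optimal peaks of X. The share also followed the match. It was 35.6% among X members in both lists, 29.4% in replicate 5 only, 21.4% in replicate 1 only and 17.6% in neither.

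**Figure D4:**
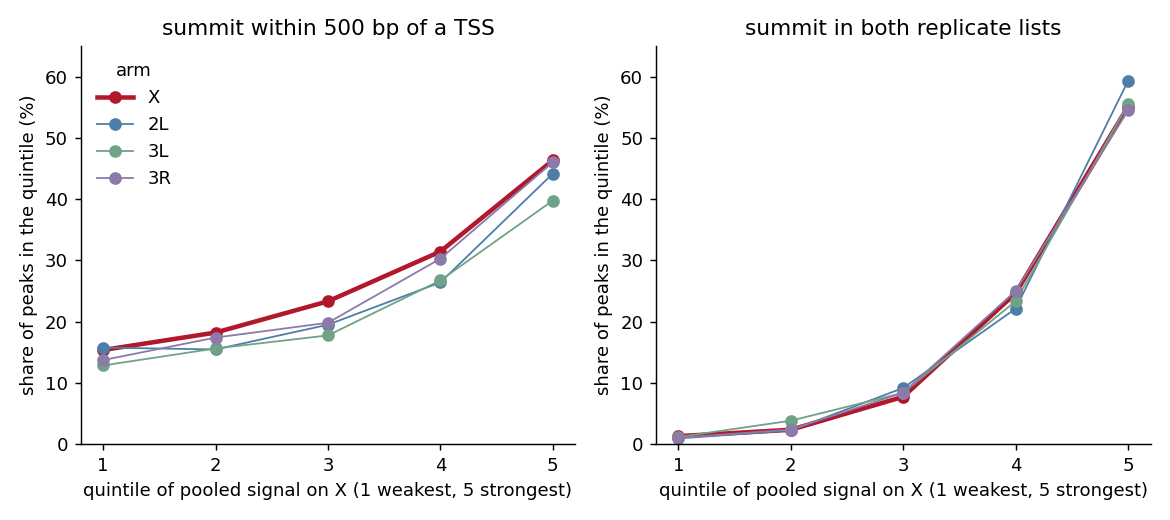
Share of peaks (percent) that were promoter summits (left) and that were matched in both replicate lists (right), by quintile of pooled signal with the limits set on X, for X and the other arms. Promoter share grew on X from 15.4% to 46.3% and the share in both lists from 1.32% to 55.1%, and the lines of the 4 arms run close together.

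Introns were the commonest class and held a larger share of members on X than on the other arms. With the annotation of Ensembl release 115, 2907 summits (54.9%) lay in introns, against 47.5% over 2L, 3L and 3R, a difference of 7.40 points (5.86 to 8.94). Introns also made up more of X, 46.7% of its bases, against 39.6% of 2L, 40.0% of 3L and 46.2% of 3R. Set against those bases, introns were 1.17 times as frequent under X members, within the range of 1.07 to 1.19 of the other arms. Intergenic summits were fewer, 19.6% on X against 29.6%, a difference of −10.0 points (−11.3 to −8.75). Here the ratio to the bases was 0.769 on X, below the 0.902 of 2L, 0.907 of 3L and 1.01 of 3R.

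Exons gave a mixed picture. Coding exons made up 16.4% of X and held 6.06% of the members, a ratio of 0.371. The 5′ UTRs held 9.89% of the members and 3.75% of the bases, a ratio of 2.64, against 2.54 to 2.66 on the other arms. The 3′ UTRs held 7.87% of X members, against 5.91%, a difference of 1.96 points (1.18 to 2.79). Per base the 3′ UTR ratio was 1.24 on X and between 1.24 and 1.30 on the other arms. These 3′ UTR summits differed between the replicates, since they made up 10.1% of the X peaks outside the optimal list in replicate 5 and 4.94% in replicate 1. They were 9.76% of the X members in replicate 5 only and 3.73% of those in both lists. Of the 187 optimal peaks of X, 1 lay in a coding exon and 2 in a 3′ UTR. Summits in annotated transposable elements were rare, 32 on X, or 0.604%, against 0.441% over the other arms. The difference was 0.16 points, with an interval (−0.05 to 0.43) that includes 0. By arm the shares were 0.705% on 2L, 0.306% on 3L and 0.354% on 3R.

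**Figure D5:**
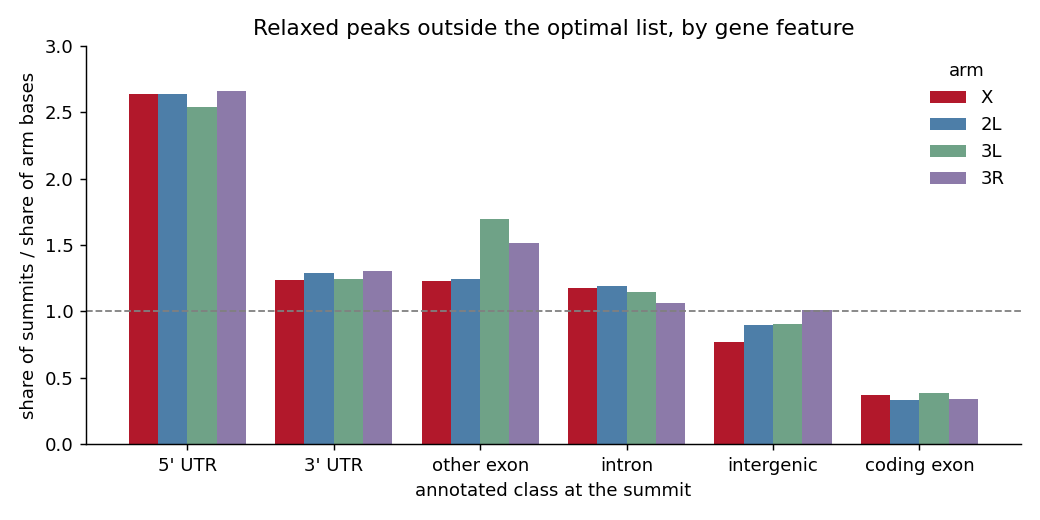
The share of summits in each annotated class divided by the share of that arm's bases in the class (vertical axis, 1 where they are equal, dashed), for X and the other arms. The 5′ UTR bars stand highest, 2.64 on X, the coding exon bars lowest, 0.371 on X, and X has the lowest bar for intergenic bases, 0.769.

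CACGTG was as frequent under the members as elsewhere on X. Each word was looked for on either strand, within 50 bp of the summit and in all windows of the same length laid end to end along each arm. Windows with an unknown base were left out, and those under members were kept. CACGTG stood under 61 members, 1.15% (0.898 to 1.48), and in 1.14% of all X windows. The share was 1.30% over 2L, 3L and 3R, a difference of −0.15 points (−0.46 to 0.22). In the list of replicate 5 alone the difference was −0.55 points (−0.81 to −0.25). Of the 187 optimal peaks of X, 2 held CACGTG, or 1.07%, so the optimal peaks did not stand above the members in this. CANNTG words other than CACGTG stood under 39.0% of members and in 39.3% of X windows. Median signal was 18.3 for the 61 members that held the word and 19.9 for the others. Of the 61, 14 were promoter summits, or 23.0%, against 27.0% of the members without the word. From the weakest to the strongest quintile of X, 16, 14, 15, 3 and 13 members held the word, and the fourth had 0.283% with it, against 1.61% in that range on the other arms.

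The strongest member with CACGTG lay 38 bp from a TSS of Coq7, which makes an enzyme of ubiquinone synthesis, at a pooled signal of 67.8, with rank 1395 in replicate 5 and rank 1720 in replicate 1. The members at GIIIspla2 and Traf6 (49.9), RpL17 (47.8) and Ilp6 (44.6), whose sequences are given above, followed with a member in an NFAT intron (45.6). Their places differed between replicates. The member at Ilp6 ranked 2219 in replicate 5 but 22929 in replicate 1. The one at RpL17 ranked 3021 in replicate 5 but 16371 in replicate 1. The RpL17 promoter also carried an optimal peak with a signal of 113.

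Repeat words were more frequent on X, under the members and along the whole arm. GAGAGAGA stood under 89 members, 1.68% on X against 1.12% over 2L, 3L and 3R, a difference of 0.56 points (0.20 to 0.97). It stood in 0.783% of all X windows, and the ratio of members to windows was 2.15 on X, against 1.83, 2.21 and 2.29 on 2L, 3L and 3R. In the list of replicate 5 alone the difference was 0.29 points (−0.01 to 0.64), with an interval that includes 0. CACACACA stood under 240 members, 4.53% on X against 2.89%, a difference of 1.64 points (1.05 to 2.28). X windows held it in 3.02%, which gives a ratio of 1.50, against 1.55, 1.39 and 1.57. TATCGATA, the core of the element bound by DREF and BEAF, stood under 54 members, 1.02% on X, at 2.91 times its share of X windows, against 3.41, 3.24 and 3.29 on 2L, 3L and 3R. For these 3 words the ratio on X was no higher than that of at least 1 other arm. GC content within 50 bp averaged 40.5% ± 10.1 (SD over 5297 members) on X and 40.2% ± 9.90 (SD over 16787 peaks) on the other arms, and all X windows averaged 42.5%.

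The 25 strongest members had a pooled signal from 69.1 to 73.6, and 23 of them were matched in both lists, with a median rank of 1436.5 in replicate 5 and 1841 in replicate 1. Of the 25, 11 were promoter summits, 16 lay in introns, 5 in 5′ UTRs, 3 in intergenic sequence and 1 in a 3′ UTR. Promoter summits made up 26.9% of all X members. Introns held 54.9% of all X members, 5′ UTRs 9.89%, intergenic sequence 19.6% and 3′ UTRs 7.87%. In the strongest quintile of X, 46.3% were promoter summits, 54.0% lay in introns and 55.1% were matched in both lists. The member in the dy intron led with a pooled signal of 73.6, and its own signal was 39.7 in replicate 5 and 37.0 in replicate 1. The member within 500 bp of start sites of both fs(1)h and mys (73.2) had 39.7 in replicate 5 and 32.7 in replicate 1. The fs(1)h gene encodes a BET bromodomain protein and mys a beta integrin. Both of these members lay in the upper part of each replicate list, at ranks 1879 and 1878 in replicate 5 and 807 and 1019 in replicate 1.

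Others among the 25 ranked unevenly. The member 252 bp from a TSS of chas (73.3) was matched in neither list, since the nearest summits lay 115 bp away in replicate 5 and 168 bp away in replicate 1, just beyond the limit. The member in an intron shared by Mur2B and br (69.4) ranked 563 in replicate 5 and 22006 in replicate 1. That near Atf3 (72.5) leaned the other way, with a rank of 5609 in replicate 5 and 475 in replicate 1.

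Further promoters among the 25 were those of CG2200 (72.8), X11L (72.4), eas (72.2), pck (72.1), nod (71.2), Mfe2 (70.8), Mer (69.8), Rok with RpS19a (69.4) and ogre (69.4). The eas gene encodes ethanolamine kinase, nod a kinesin-like protein of meiosis, Mfe2 a peroxisomal enzyme of fatty acid oxidation, Mer the fly Merlin and ogre an innexin. Intron members included those of DIP-alpha (73.2), CG42258 (73.0), Raf (72.7), pico (71.8), sgg (71.8), Tlk (70.6), ct (70.5), Nep1 (70.4), Bx (69.4) and CG1677 (69.1). Here ct encodes a homeodomain factor, Tlk the Tousled-like kinase, Nep1 a neprilysin peptidase and Bx a LIM-only protein.

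More of the protein-coding genes of X than of the other arms had a member at a promoter. There were 1130 such genes of 2196, or 51.5% (49.4 to 53.5), against 40.5% on 2L, 43.1% on 3L and 41.5% on 3R. An optimal peak stood at a promoter of 103 X genes, 4.69%, against 6.29%, 5.99% and 6.90% on 2L, 3L and 3R. Counting only genes whose strongest promoter member was matched in both replicate lists left 317 X genes, 14.4%, against 13.7% on 2L, 14.3% on 3L and 13.5% on 3R. This count needs a summit in replicate 1, whose list was sparsest on X. With the list of replicate 5 alone 1253 X genes had a peak outside the optimal list at a promoter, and with that of replicate 1 alone 709. The other arms were not counted in this way. X had 3275 start-site positions for its 2196 genes, 2L 3625 for 2657, 3L 3724 for 2739 and 3R 4546 for 3421. The shares of genes were not adjusted for this.

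Cytosolic ribosomal protein genes had the strongest promoter members of the 8 gene lists. All 14 on X had a peak at a promoter, 9 a member and 6 an optimal peak, with RpL17 counted under both. Of all X genes, 54.2% had a member or an optimal peak at a promoter and 4.69% an optimal peak. The median signal of their strongest members was 61.1, against 27.4 over all X genes with a member. The members of RpS19a (69.4), RpL7A (63.6), RpL22 (62.8) and RpS5a (61.1) were matched in both lists, and those of RpS6 (54.7), RpS14a (35.8) and RpL35 (24.9) in replicate 5 only. RpS14a and RpS14b (67.3) are neighbouring near-identical copies, so the reads behind their members may be shared. Of the 11 mitochondrial ribosomal protein genes on X, 7 had a member and none an optimal peak, with a median signal of 24.3, led by mRpL3 (49.2), mRpL38 (39.7), mRpS14 (34.5) and mRpL22 (24.3). Among these 7, that of mRpS14 was matched in both lists and the others in replicate 5 only. Of all 1427 promoter members of X, 24.1% were matched in both lists and 50.6% in replicate 5 only.

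A list of genes of sugar use and of others tied to Mondo, such as Myc and sgg, held 8 genes on X. Each of the 8 had a peak at a promoter, 5 a relaxed one outside the optimal list and 5 an optimal one, with Hex-A and sgg under both. Over all X genes the shares were 54.2% with either kind of peak, 51.5% with a member and 4.69% with an optimal peak. Pfrx, which makes the enzyme that sets fructose 2,6-bisphosphate, had a member of 58.2 at rank 3356 in replicate 5 and 3142 in replicate 1. Pgd, an enzyme of the pentose phosphate pathway, had one of 30.6 at rank 23682 in replicate 5 and 11389 in replicate 1. Myc, a growth regulator whose partner Max is related to Mlx, had one of 28.9 matched in replicate 5 only. The member of the hexokinase gene Hex-A had 16.0, at rank 23157 of the 28423 pooled peaks, beside an optimal peak of 95.5. That of sgg (48.6) lay beside an optimal peak of 179. The list was built around known or suspected targets of Mondo and with earlier results known, so its counts are a description.

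Of 12 nuclear respiratory chain genes, 8 had a member and 3 an optimal peak, with ND-ASHI under both. Over all protein-coding genes of X the shares were 51.5% with a member and 4.69% with an optimal peak. The median signal was 25.8, led by ND-MNLL (42.1), ND-B18 (37.7), ND-75 (29.4) and ND-20 (28.0), all subunits of complex I. Of these 4, ND-MNLL was matched in both lists and the other 3 in replicate 5 only. Over all 1427 promoter members of X, 24.1% were matched in both lists and 50.6% in replicate 5 only. The 2 V-ATPase genes gave 1 member, at VhaAC39-1, with a signal of 14.6 and no match.

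Of 14 developmental regulators, 12 had a member, with a median signal of 25.4. An optimal peak at a promoter was held by 1 of the 14, br, with a signal of 82.3, beside its member. Over all protein-coding genes of X the shares were 51.5% with a member and 4.69% with an optimal peak. The strongest members were at br (58.4), the zinc-finger factor induced by ecdysone, sd (53.6), the DNA-binding partner of Yorkie, N (34.6), the Notch receptor, and ct (31.0). Those of br and N were matched in both lists and those of sd and ct in replicate 5 only. Of these 12 members 8 were matched in replicate 5 only, and none in replicate 1 only. Among all 1427 promoter members of X, 50.6% were matched in replicate 5 only and 12.5% in replicate 1 only. Of 7 genes of dosage compensation and sex determination, 4 had a member. Sxl, the switch gene of female development, had one of 43.3, and sc, which is counted in the X signal that sets sex, one of 28.1, both matched in replicate 5 only. The roX2 RNA gene had one of 23.2, with rank 15323 in replicate 5 and rank 16262 in replicate 1, and roX1 one of 18.8 matched in neither list. The genes mof, sisA and run had none. Of 6 genes of cuticle colour, yolk, serum storage and glue proteins, 1 had a member, Lsp1alpha (14.7), a larval serum protein. By count, these lists ranged from 16.7% to 85.7% of genes with a member, around the 51.5% of all X genes.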

How the data were processed

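The data were narrowPeak files of 1 group of 2 biological replicates. Per the text files deposited with them, each relaxed list was called on 1 replicate against a control alignment and the pooled list on both replicates against the same control. The optimal list came from these 3 lists. The sources used here name no aligner, caller or IDR threshold. Errors of the control are shared by both replicates. The signal of each peak and its −log10 q-value are the authors' deposited values, used to describe and rank peaks within a list. Read depth is unknown, and intervals cover counting error over peaks only.

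The dm6 coordinates were set 1-based against the RefSeq Release 6 genome, within whose arm lengths all peaks of the 4 arms ended, and against Ensembl release 115 (BDGP 6.54). Members were pooled X peaks that shared no base (at least 1 bp) with an optimal peak. A summit took 1 class, in the order 5′ UTR, coding exon, 3′ UTR, other exon, intron, intergenic, without strand and without transposable elements. Shares have 95% Wilson intervals and differences 95% Newcombe intervals. No p-value was computed. Functions were tested on simulated peaks. Python 3.11.15, numpy 2.4.6, pandas 2.3.3, scipy 1.17.1 and matplotlib 3.10.9 were used.

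The members, gene lists, words and tests were chosen with earlier results of these data known. Named genes were those with a protein-coding TSS within 500 bp of the 25 strongest members, and up to 4 genes of each list with the strongest promoter member. Of these 25 members, 1 is not reported here by name. Host genes and nearest genes of the 25, further list genes and the genes at CACGTG members were named after their values had been seen. The roX genes were placed by their own start sites, since they code for no protein. Alternatives were each replicate list alone, the dm3 lists, removal by summit distance, 1 summit for each distinct interval, the 1000 strongest peaks of each arm, TSS distances of 200 and 1000 bp, start sites of any gene, the whole peak, match distances of 50 and 250 bp, any shared base, and windows of 25 and 100 bp.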

Additional observations from a re-analysis of the deposited data

How the results depend on the processing

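No paired analysis was possible because the study has 1 group. The labels do not say whether the replicates share a batch. With each replicate list alone, the share of X peaks outside the optimal list was 94.5% to 96.6%, the number of peaks 3541 to 6483, the density 150 to 275 per Mb, the promoter share 22.3% to 26.7%, the median signal 10.3 to 13.8 on the replicates' own scales, the intron share 52.3% to 56.8%, the CACGTG share 0.802% to 1.10%, the mean GC content 40.3% to 42.0%, and the genes with a promoter member 709 to 1253. The difference between X and the other arms ran from −0.38 to 3.32 points for promoters, −0.55 to −0.21 for CACGTG and 0.29 to 0.46 for GAGAGAGA. With the 1000 strongest of each arm, the promoter share of X was 47.4%, the share in both lists 56.3% and the median signal 39.4. The differences were then 1.57 points for promoters, 0.70 for GAGAGAGA and 0.93 for CACACACA, each with an interval that includes 0. The promoter share was 17.7% within 200 bp, 37.9% within 1000 bp and 16.4% for a whole peak over a TSS, where the difference was 0.71 points, and with start sites of any gene it was 0.34 points. The share in both lists was 10.6% within 50 bp, 30.8% within 250 bp and 34.5% for any shared base. With the 150 strongest replicate peaks per Mb, added after seeing the data, it was 13.3%. The differences were then −0.32 points for both lists, −0.67 for replicate 5, which reversed its sign though X lay above 2L and 3L and below 3R only, and −0.89 for replicate 1. The CACGTG share was 0.51% within 25 bp and 2.23% within 100 bp. Why these values moved was not tested beyond what each limit itself sets.

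The differences for intron, intergenic and 3′ UTR shares kept their sign and an interval without 0 under each alternative run for them, and so did those for matches in replicates 5 and 1 under every match rule other than the limit of 150 peaks per Mb. Removing peaks by optimal summits within 100 bp left 5331 members, the dm3 lists 5435, and 1 summit for each distinct interval the same 5297. Read depth is unknown, and the replicate lists hold 29999 and 30000 peaks, so the share of one arm in a list is relative to the others.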

Other observations

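The median signal of X peaks outside the optimal list was 13.8 in the list of replicate 5, against 14.6, 14.6 and 14.7 on 2L, 3L and 3R, and 10.3 in that of replicate 1, against 10.6, 10.7 and 10.6. The 3′ UTR share of these peaks was 10.1% on X in replicate 5, against 7.57%, 6.89% and 7.57% on 2L, 3L and 3R. In replicate 1 it was 4.94% on X, against 4.12%, 3.61% and 4.58%. The share of 3′ UTR summits was thus lower in replicate 1 than in replicate 5 on all 4 arms. Among X members it was 8.21% in the weakest quintile by pooled signal and 4.81% in the strongest, against 6.79% and 2.54% over 2L, 3L and 3R.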
